A study of Rattus norvegicus with 6 samples.

Results

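Chromatin accessibility was examined at 10 genes of blood vessels and vascular endothelial growth factor (VEGF) signalling in rat pancreatic islets, namely *Vegfa*, *Angpt1*, *Angpt2*, *Kdr*, *Flt1*, *Nrp1*, *Tek*, *Eng*, *Pecam1* and *Cdh5*. The members were the accessible sites (ACS, regions where the Tn5 transposase cut often enough to be called as a peak) whose nearest gene carried one of these symbols. Of the 10 genes, 9 had such sites, which gave 138 of 101603 ACS and 9 of 14667 nearest genes. *Eng* had no ACS under its symbol. The Adult group held 3 ATAC-seq libraries (replicates 4, 5 and 6), each from the dissociated islet cells of 1 male Sprague-Dawley rat aged 3 months, around 90 days. The P10 group held 3 libraries (replicates 1, 2 and 3) from Sprague-Dawley pups aged 10 days, each a mix of male and female pups of a different litter. No animal was treated. Adult islets came from a pancreas filled with collagenase through its duct, and P10 islets from pooled pancreases digested by shaking. Hence age, sex, pooling and isolation differ together between the groups and cannot be told apart. The comparison asks which ACS of these genes differ in accessibility between the neonatal and the mature islet.

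Islets are densely vascularised, and their endocrine cells secrete VEGF-A, which acts on endothelial cells through the receptor tyrosine kinases KDR (VEGFR2) and FLT1 (VEGFR1), with neuropilin 1 as a co-receptor. The angiopoietins act through the endothelial receptor TEK (TIE2), on which ANGPT1 is an activating ligand that stabilises vessels and ANGPT2 a ligand that can oppose it. VEGF-A is needed for the dense, fenestrated capillaries of the islet.

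The libraries held 11903909, 10319487 and 7916919 Tn5 integrations inside ACS in Adult replicates 4, 5 and 6, and 21168463, 13491534 and 18108935 in P10 replicates 1, 2 and 3. Of these, 14885, 11621 and 10226 lay in the 138 ACS in the Adult libraries and 22615, 14053 and 18958 in the P10 libraries. Library sizes were adjusted by TMM (trimmed mean of M values), with factors from 0.930 to 1.04, and levels are given as CPM (integrations relative to all those in ACS of the library, after this scaling). A site was called Up (more accessible in adults) or Down (more accessible in P10) at an unadjusted p under 0.05 and a false discovery rate under 0.2 in edgeR's quasi-likelihood test across all 101603 ACS, with Benjamini-Hochberg adjustment. A positive log2 fold change stands for a higher Adult level. The mean count of an ACS per library ranged from 9.83 to 869 with a median of 77.2. The log2 fold changes had a standard error with a median of 0.26 at the 91 ACS averaging 50 counts or more and 0.39 at the 47 below that. The libraries are bulk, so fewer cells of a type and less accessibility per cell cannot be told apart.

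Accessibility at these genes was more often higher in adults than lower. Of the 138 ACS, 32 were called Up (23.2%, against 12.3% of all ACS) and 6 were called Down (4.35%, against 6.63% of all ACS), and the median log2 fold change was 0.12 against -0.01 over all ACS. At a false discovery rate under 0.05, 22 were Up and 1 was Down, against 7.06% and 1.91% of all ACS. At 32 of the 138 sites (13.8% of all ACS) the Adult libraries were all higher than the P10 libraries, at 10 (10.9% of all ACS) all lower, and at the other 96 the groups overlapped. The genes with the most ACS, *Nrp1*, *Angpt2* and *Cdh5* with 26, 27 and 28, held 28 of the 32 Up sites. The count of Down sites depended on the libraries, with 3 without Adult replicate 4 and 1 without P10 replicate 2. With the total sequenced reads as library sizes the median over all ACS moved to -0.84 and over the 138 ACS to -0.70. Of the 138 ACS, 6 were then Up and 68 Down, and of all 101603 ACS 1062 were Up and 61663 Down. The differences given here are thus relative to the bulk of ACS in the same library.

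As a share of all integrations in ACS (CPM of the column sums), the 138 sites took 1250, 1126 and 1292 CPM in Adult replicates 4, 5 and 6, and 1068, 1042 and 1047 CPM in P10 replicates 1, 2 and 3. All 3 Adult libraries were above all 3 P10 libraries, and the P10 libraries were close together. Adult replicate 5 was the lowest of its group. The mean was 1223 ± 86.2 CPM (SD, n = 3) in the Adult and 1052 ± 14.2 CPM (SD, n = 3) in the P10 libraries, a log2 ratio of 0.22 (two-sided exact permutation test, p = 0.1, the lowest p possible for 3 against 3 libraries), which turned to -0.53 per total sequenced read and to -0.10 over gene-start sites alone. The 10 gene-start sites alone took 117 ± 12.1 CPM (SD, n = 3) in the Adult and 126 ± 4.59 CPM (SD, n = 3) in the P10 libraries, with overlapping groups (log2 ratio -0.10, two-sided exact permutation test, p = 0.400). The excess in adults thus came from sites away from the gene starts. Gene-start sites were also the lower ones over all ACS, with a median log2 fold change of -0.10. Distal sites had 0.00 within 100 kb of the gene start and 0.04 beyond it.

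By distance from the gene start, the TSS class (within 1 kb of the gene start) held 10 ACS, of which 1 was Up and 1 Down, against 2.73% and 7.87% of all TSS sites. The proximal class (up to 10 kb) held 11 ACS, of which 5 were Up and 0 Down in edgeR, against 11.2% and 6.71% of all proximal sites. Of the distal ACS, 41 lay within 100 kb of the gene start, with 9 Up and 1 Down, and 76 beyond it, with 17 Up and 4 Down. The shares called Up were 22.0% and 22.4%, beside 13.8% Up and 6.45% Down of all distal ACS. By position, 12 of the 36 ACS inside a gene body rose and 1 fell (33.3% and 2.78%, against 16.0% and 6.70% of all ACS there). Upstream of a gene, 15 of 52 rose and 0 fell in edgeR (28.8% Up, against 12.3% Up and 6.61% Down). Downstream 5 of 45 rose and 4 fell (11.1% and 8.89%, against 12.5% and 6.22%), and of the 5 ACS over a gene start 0 rose in edgeR and 1 fell (against 2.22% and 7.88%). These are counts of sites at 9 genes, and sites of the same gene are not independent.

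Summed over all ACS of a gene and tested across 14667 nearest genes, 4 of the 9 genes were called higher in adults (10.7% of all genes), namely *Nrp1*, *Cdh5*, *Angpt2* and *Kdr*. None was called lower (7.78% of all genes) by edgeR's quasi-likelihood test, with 0 lower at an unadjusted p under 0.05 and 0 called lower by DESeq2 or limma voom. The calls of *Nrp1* and *Cdh5* held with each library left out in turn, whereas without Adult replicate 4, without Adult replicate 6 or without P10 replicate 2 the count fell to 2. Under total sequenced reads as library sizes no gene was higher and 6 were lower, namely *Vegfa*, *Kdr*, *Angpt2*, *Tek*, *Pecam1* and *Angpt1*. That setting moved the median over all ACS to -0.84, with 61663 of the 101603 ACS called Down. Lower calls under it, here and below, are thus not particular to these genes. Per kb of ACS, the mean level in the Adult libraries was highest at *Kdr* (28.4 CPM per kb), *Angpt2* (26.7), *Nrp1* (22.2) and *Vegfa* (21.4). In the P10 libraries it was highest at *Kdr* (22.6 CPM per kb), *Vegfa* (21.2), *Angpt2* (21.1) and *Tek* (20.2), with *Nrp1* at 14.4.

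**Figure D1:**
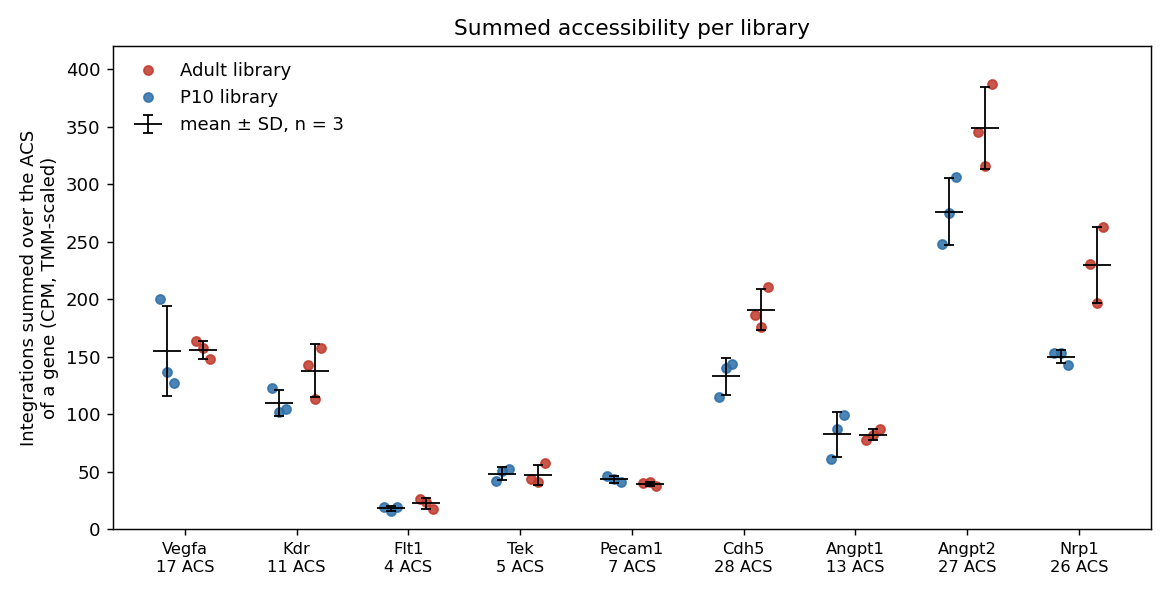
Tn5 integrations summed over all ACS of each gene (vertical axis, CPM after TMM scaling) for the genes on the horizontal axis, with a point per library, P10 in blue and Adult in red, and bars for mean ± SD (n = 3). The Adult points lie above all P10 points at *Cdh5*, *Angpt2* and *Nrp1*, an order that turns in the fitted fold changes when total sequenced reads are taken as library sizes.

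*Vegfa*, the ligand that endocrine cells send to the islet endothelium, had no call at either age. Its 17 ACS summed to 164, 158 and 148 CPM in Adult replicates 4, 5 and 6, and to 200, 137 and 127 CPM in P10 replicates 1, 2 and 3. P10 replicate 1 was the highest of all 6 libraries and the other P10 libraries the lowest. The groups overlapped. In the test this was a log2 fold change of 0.01 (standard error 0.14, Benjamini-Hochberg adjusted p = 0.967 in edgeR's quasi-likelihood test). Its sign changed with the library left out and with the scaling. With total sequenced reads the sum was called lower (-0.87, adjusted p = 0.00305 in the same edgeR test). Of the 17 ACS, 0 were called in either direction by edgeR, DESeq2 or limma voom, 0 passed an unadjusted p under 0.05 in edgeR, and 2 were called Down by limma-trend after cyclic loess scaling.

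The site over the *Vegfa* start (chr9:16232118-16232559, Rn5) had 10.3, 12.6 and 10.6 CPM in Adult replicates 4, 5 and 6 and 16.8, 13.5 and 10.3 CPM in P10 replicates 1, 2 and 3. P10 replicate 3 was no higher than the lowest Adult library, so the groups overlapped. The log2 fold change of -0.28 (standard error 0.23) did not pass (edgeR's quasi-likelihood test, Benjamini-Hochberg adjusted p = 0.545), while total sequenced reads gave -1.15 and a Down call (adjusted p = 0.00698). The site with the most counts lay 66.5 kb downstream of the start (chr9:16298930-16300128), with 30.5 ± 4.68 CPM (SD, n = 3) in the Adult and 27.7 ± 9.23 CPM (SD, n = 3) in the P10 libraries. That log2 fold change was 0.14 (standard error 0.20, edgeR's quasi-likelihood test, Benjamini-Hochberg adjusted p = 0.772). Without P10 replicate 1 it was 0.44 and called Up (adjusted p = 0.170 in the same edgeR test). With total sequenced reads it turned to -0.74 and was called Down (adjusted p = 0.0441 in the same edgeR test). No *Vegfa* ACS lay farther than 155 kb from the start, and 13 of the 17 lay downstream of the gene. The log2 fold changes of all 17 ranged from -0.58 to 0.53, and at all 17 the groups overlapped.

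*Angpt1*, the activating ligand of TEK, made mainly by mural and mesenchymal cells, also had no call on its summed level. Its 13 ACS summed to 82.3 ± 5.00 CPM (SD, n = 3) in the Adult and 82.5 ± 19.5 CPM (SD, n = 3) in the P10 libraries, with P10 replicate 1 lowest at 61.1 CPM and P10 replicate 3 highest at 99.2 CPM of all libraries. This gave a log2 fold change of 0.00 (standard error 0.14, edgeR's quasi-likelihood test, Benjamini-Hochberg adjusted p = 0.990). With total sequenced reads the sum was called lower (-0.79, adjusted p = 0.00394 in the same edgeR test). Of the 13 ACS, 2 fell and 10 lay inside the long gene body without reaching its start.

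The *Angpt1* site that fell with the smallest p lay 147 kb into the gene (chr7:81470980-81471280). It had few counts, at 0.361, 0.876 and 1.03 CPM in Adult replicates 4, 5 and 6, and 1.07, 3.28 and 1.64 CPM in P10 replicates 1, 2 and 3. All Adult values were below all P10 values, with P10 replicate 2 far above the rest. The fitted log2 fold change was -1.40 (standard error 0.50, edgeR's quasi-likelihood test, Benjamini-Hochberg adjusted p = 0.0822). The call was lost without Adult replicate 4 (-1.03, adjusted p = 0.291) and without P10 replicate 2 (-0.88, adjusted p = 0.479). The other site that fell, named after its values were seen, overlapped the gene start (chr7:81618362-81618620) with 2.08 ± 0.815 CPM (SD, n = 3) in the Adult and 3.70 ± 0.561 CPM (SD, n = 3) in the P10 libraries, without overlap. The log2 fold change there was -0.85 (standard error 0.35, edgeR's quasi-likelihood test, Benjamini-Hochberg adjusted p = 0.145). That call was lost without Adult replicate 4 (-0.80, adjusted p = 0.282), Adult replicate 5 (-0.62, adjusted p = 0.350), P10 replicate 2 (-0.75, adjusted p = 0.391) or P10 replicate 3 (-0.87, adjusted p = 0.265). Of the stronger sites near this start, the one 802 bp inside the gene (chr7:81617567-81618143) had 18.9 ± 4.05 CPM (SD, n = 3) in the Adult and 16.8 ± 3.74 CPM (SD, n = 3) in the P10 libraries. The one 2.02 kb inside (chr7:81616348-81617044) had 18.6 ± 2.74 (SD, n = 3) and 18.9 ± 4.29 (SD, n = 3) CPM, and neither passed the test (log2 fold changes 0.17 and -0.01, adjusted p = 0.738 and 0.982 in edgeR's quasi-likelihood test). With total sequenced reads both were called Down (-0.64 and -0.80, adjusted p = 0.0534 and 0.0215 in the same edgeR test).

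*Angpt2*, the context-dependent ligand of TEK that endothelial cells make while vessels remodel, carried 27 ACS, of which 10 rose and 3 fell. Summed, its ACS had 345, 316 and 387 CPM in Adult replicates 4, 5 and 6, and 248, 275 and 306 CPM in P10 replicates 1, 2 and 3. The groups did not overlap, although Adult replicate 5 and P10 replicate 3 were near each other. Fitted over all libraries, the log2 fold change was 0.34 (standard error 0.13, edgeR's quasi-likelihood test, Benjamini-Hochberg adjusted p = 0.140). This call was not firm, as it was lost without Adult replicate 4 (0.35, adjusted p = 0.287), Adult replicate 6 (0.26, adjusted p = 0.371), P10 replicate 1 (0.25, adjusted p = 0.279) or P10 replicate 2 (0.34, adjusted p = 0.422), with cyclic loess and limma-trend (0.16, adjusted p = 0.338) and over distal ACS alone (0.17, adjusted p = 0.427). The direction turned under total sequenced reads, and the sum was then called lower (-0.48, adjusted p = 0.0246 in the same edgeR test). In the RefSeq order of genes *Angpt2* is overlapped by *Mcph1* and lies between *Agpat5* and *Csmd1*. Its ACS, like all others, are assigned by nearest gene alone.

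Around the *Angpt2* start, the site just inside the gene (333 bp, chr16:75572634-75573174) was the only TSS-class member called Up. It had 30.3, 22.0 and 31.3 CPM in Adult replicates 4, 5 and 6, and 20.1, 15.8 and 18.4 CPM in P10 replicates 1, 2 and 3. Every Adult library was above every P10 library, with Adult replicate 5 next to P10 replicate 1. This corresponded to a log2 fold change of 0.62 (standard error 0.19, edgeR's quasi-likelihood test, Benjamini-Hochberg adjusted p = 0.0422). This call was lost without P10 replicate 2 (0.51, adjusted p = 0.242) and turned under total sequenced reads (-0.24). The neighbouring site over the start itself (chr16:75571938-75572502), named after its values were seen, had 8.27 ± 0.978 CPM (SD, n = 3) in the Adult and 9.53 ± 1.04 CPM (SD, n = 3) in the P10 libraries, with overlapping groups. At 8.71 kb upstream (chr16:75563594-75564138) the values were 32.8 ± 10.5 (SD, n = 3) and 19.6 ± 3.47 (SD, n = 3) CPM (log2 fold change 0.74, standard error 0.21, edgeR's quasi-likelihood test, Benjamini-Hochberg adjusted p = 0.0243). Adult replicate 5 lay there inside the P10 range and the direction turned under total sequenced reads (-0.08).

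The larger differences of *Angpt2* lay farther out and in both directions. The site 15.1 kb inside the gene (chr16:75587406-75587700) had 10.7, 7.79 and 12.6 CPM in Adult replicates 4, 5 and 6, and 2.88, 3.28 and 3.65 CPM in P10 replicates 1, 2 and 3. All Adult libraries exceeded all P10 libraries, which were tightly grouped (log2 fold change 1.66, standard error 0.27, edgeR's quasi-likelihood test, Benjamini-Hochberg adjusted p = 1.51e-04). The site 463 kb downstream of the start (chr16:76035427-76035632) had 9.49, 7.21 and 7.61 CPM in Adult replicates 4, 5 and 6, and 1.63, 1.85 and 1.96 CPM in P10 replicates 1, 2 and 3. Again no library of an age reached the range of the other, and the log2 fold change was 2.16 (standard error 0.29, edgeR's quasi-likelihood test, Benjamini-Hochberg adjusted p = 1.67e-05). In the opposite direction, the site 303 kb downstream (chr16:75875015-75875335) had 1.08, 1.95 and 1.93 CPM in Adult replicates 4, 5 and 6, and 2.37, 5.35 and 6.08 CPM in P10 replicates 1, 2 and 3. The Adult values were all below the P10 values, with P10 replicate 1 the lowest of its group, and the log2 fold change was -1.48 (standard error 0.39, edgeR's quasi-likelihood test, Benjamini-Hochberg adjusted p = 0.0133). These last 3 sites were called under every alternative in which they were tested, total sequenced reads included (0.83, 1.34 and -2.25).

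Between them, a site 107 kb downstream (chr16:75679638-75680144) rose from 5.60 ± 1.39 (SD, n = 3) to 10.2 ± 1.34 (SD, n = 3) CPM (log2 fold change 0.85, standard error 0.25, edgeR's quasi-likelihood test, Benjamini-Hochberg adjusted p = 0.0313), a call lost without P10 replicate 2 (0.70, adjusted p = 0.204) and under total sequenced reads (0.03, adjusted p = 0.933). The site with the most counts, 143 kb downstream (chr16:75714937-75716104), had 49.8 ± 2.09 CPM (SD, n = 3) in the Adult and 47.0 ± 2.54 CPM (SD, n = 3) in the P10 libraries, with overlapping groups (log2 fold change 0.08, adjusted p = 0.833 in edgeR's quasi-likelihood test). With total sequenced reads it turned and was called Down (-0.77, adjusted p = 0.0149 in the same edgeR test). A pair of adjoining sites 423 kb downstream went opposite ways. The narrower (chr16:75994965-75995294) fell, with 2.33 ± 1.12 CPM (SD, n = 3) in the Adult and 4.51 ± 1.04 CPM (SD, n = 3) in the P10 libraries and overlapping groups, and the wider (chr16:75995329-75996273) rose, with 40.0 ± 6.32 (SD, n = 3) and 29.8 ± 2.60 (SD, n = 3) CPM without overlap. Their log2 fold changes were -0.93 and 0.42 (adjusted p = 0.102 and 0.136 in edgeR's quasi-likelihood test). Both of them, and the third *Angpt2* site that fell, 96.6 kb downstream (chr16:75668924-75669233, log2 fold change -1.18, adjusted p = 0.0887 in the same edgeR test), were named after their values were seen. The site at 96.6 kb was not called without Adult replicate 4 (-1.04, adjusted p = 0.232) or P10 replicate 2 (-0.94, adjusted p = 0.369). The narrower site of the pair was not called without Adult replicate 5 (-0.69, adjusted p = 0.293), Adult replicate 6 (-0.79, adjusted p = 0.257), P10 replicate 2 (-0.90, adjusted p = 0.245) or P10 replicate 3 (-0.80, adjusted p = 0.307).

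*Kdr*, the main signalling receptor for VEGF-A and a marker of endothelial cells, had 11 ACS, of which 3 rose. By edgeR 0 of the 11 were Down, and by limma voom 1 was. The summed level of its ACS was 143, 113 and 158 CPM in Adult replicates 4, 5 and 6, and 123, 102 and 105 CPM in P10 replicates 1, 2 and 3. Adult replicate 5 lay inside the P10 range, so the groups overlapped. The fit gave a log2 fold change of 0.33 (standard error 0.13, edgeR's quasi-likelihood test, Benjamini-Hochberg adjusted p = 0.142). The call was lost without Adult replicate 4 (0.31, adjusted p = 0.315), Adult replicate 6 (0.22, adjusted p = 0.431), P10 replicate 2 (0.28, adjusted p = 0.448) or P10 replicate 3 (0.29, adjusted p = 0.255), with column sums as library sizes (0.24, adjusted p = 0.263) and with cyclic loess and limma-trend (0.21, adjusted p = 0.345). It was also lost over distal ACS alone (0.25, adjusted p = 0.349) and over ACS within 100 kb alone (0.30, adjusted p = 0.218). The direction turned under total sequenced reads, and the sum was then called lower (-0.54, adjusted p = 0.0313 in the same edgeR test).

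The site over the *Kdr* start (chr14:34557103-34557960) was not called, at 12.8 ± 3.61 CPM (SD, n = 3) in the Adult and 14.7 ± 2.38 CPM (SD, n = 3) in the P10 libraries. The libraries of both ages were interspersed (log2 fold change -0.21, standard error 0.23, adjusted p = 0.678 in edgeR's quasi-likelihood test), and total sequenced reads gave a Down call (-1.03, adjusted p = 0.00743). The 3 sites that rose lay on either side of it. Inside the gene at 2.64 kb (chr14:34560000-34560255) the values were 20.6, 17.4 and 17.9 CPM in Adult replicates 4, 5 and 6, and 11.2, 10.1 and 11.8 CPM in P10 replicates 1, 2 and 3, a clear separation with little spread in either group (log2 fold change 0.76, standard error 0.21, edgeR's quasi-likelihood test, Benjamini-Hochberg adjusted p = 0.0169). Upstream at 29.2 kb (chr14:34528158-34528501) they were 6.04 ± 2.18 (SD, n = 3) and 2.74 ± 0.580 (SD, n = 3) CPM, without overlap (log2 fold change 1.11, standard error 0.32, adjusted p = 0.0235 in edgeR's quasi-likelihood test). Downstream at 163 kb (chr14:34720121-34720505) they were 11.1 ± 2.42 (SD, n = 3) and 5.29 ± 0.988 (SD, n = 3) CPM, also without overlap (log2 fold change 1.05, standard error 0.25, adjusted p = 0.00752 in edgeR's quasi-likelihood test). Under total sequenced reads none of these 3 calls held (-0.08, 0.26 and 0.18, in the order above).

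The most counted of all 138 ACS, 153 kb downstream of the *Kdr* start (chr14:34710590-34711581), had 81.9, 51.8 and 76.4 CPM in Adult replicates 4, 5 and 6, and 73.9, 51.7 and 45.9 CPM in P10 replicates 1, 2 and 3. Adult replicate 5 and P10 replicate 1 crossed between the groups, and the log2 fold change of 0.29 (standard error 0.18) did not pass (edgeR's quasi-likelihood test, Benjamini-Hochberg adjusted p = 0.394). It was called Up when either of the crossing libraries was left out, with 0.47 (adjusted p = 0.0997) without Adult replicate 5 and 0.51 (adjusted p = 0.0925) without P10 replicate 1. With total sequenced reads its direction turned and it was called Down (-0.60, adjusted p = 0.0689 in the same edgeR test). In the RefSeq order of genes along the chromosome, *Kdr* lies between *Srd5a3* and *Kit*.

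*Flt1*, the receptor that binds VEGF-A tightly and limits its signal, had 4 ACS, all upstream of the gene and none of the TSS class. Its summed level was 22.7 ± 4.51 CPM (SD, n = 3) in the Adult and 18.5 ± 2.18 CPM (SD, n = 3) in the P10 libraries, with overlapping groups (log2 fold change 0.30, standard error 0.18, adjusted p = 0.332 in edgeR's quasi-likelihood test). The site called Up lay 53.8 kb upstream (chr12:11101282-11101601), with 11.5, 9.84 and 4.12 CPM in Adult replicates 4, 5 and 6, and 4.88, 4.35 and 5.60 CPM in P10 replicates 1, 2 and 3. Adult replicate 6 was the lowest of all 6 libraries. The difference rested on Adult replicates 4 and 5. As log2 fold change this was 0.79 (standard error 0.30, edgeR's quasi-likelihood test, Benjamini-Hochberg adjusted p = 0.0996). It was lost without Adult replicate 4 (0.51, adjusted p = 0.420), Adult replicate 5 (0.68, adjusted p = 0.253) or P10 replicate 2 (0.69, adjusted p = 0.315) and with cyclic loess and limma-trend (0.53, adjusted p = 0.345). With total sequenced reads the direction turned at this site (-0.01) and in the summed level (-0.52). The site with the most counts, 61.0 kb upstream (chr12:11094063-11094707), had 6.43 ± 0.279 CPM (SD, n = 3) in the Adult and 6.75 ± 1.65 CPM (SD, n = 3) in the P10 libraries, and did not pass (log2 fold change -0.08, adjusted p = 0.911 in the same edgeR test).

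*Nrp1*, the co-receptor that presents VEGF-A to KDR and that also binds semaphorins, showed the most sites that rose, 12 of 26. Its summed level was 231, 197 and 263 CPM in Adult replicates 4, 5 and 6, and 153, 153 and 143 CPM in P10 replicates 1, 2 and 3. All Adult libraries were well above the P10 libraries, which were nearly equal. The log2 fold change was 0.62 (standard error 0.12), a 1.54-fold difference (edgeR's quasi-likelihood test, Benjamini-Hochberg adjusted p = 0.00703). It lay between 0.51 and 0.72 with each library left out. Under total sequenced reads it turned to -0.23 and did not pass. By edgeR, DESeq2 and limma voom 0 of the 26 sites were Down, with 0 lower at an unadjusted p under 0.05 in edgeR, and by limma-trend after cyclic loess scaling 1 was.

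The site of *Nrp1* with the smallest p lay 260 kb upstream of the start (chr19:71724441-71724976). It had 15.3, 11.4 and 20.8 CPM in Adult replicates 4, 5 and 6, and 3.35, 3.42 and 3.07 CPM in P10 replicates 1, 2 and 3. The lowest Adult library was more than 3-fold above the highest P10 library, and the Adult libraries were the more spread. The log2 fold change was 2.26 (standard error 0.26, edgeR's quasi-likelihood test, Benjamini-Hochberg adjusted p = 1.82e-06). It was 1.40 and still called under total sequenced reads (adjusted p = 0.00261). The site with the most counts lay 136 kb inside the gene, near its end (chr19:72120543-72121133), with 39.7, 24.5 and 40.2 CPM in Adult replicates 4, 5 and 6, and 20.7, 16.3 and 18.1 CPM in P10 replicates 1, 2 and 3. Adult replicate 5 was the lowest of its group and still above every P10 library (log2 fold change 0.92, standard error 0.20, edgeR's quasi-likelihood test, Benjamini-Hochberg adjusted p = 0.00274), but this call was lost under total sequenced reads (0.05, adjusted p = 0.869).

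Further *Nrp1* sites that rose at a false discovery rate under 0.05 were spread over the gene body and its upstream side. Inside the gene they lay 5.05 kb (chr19:71989733-71989946), 13.6 kb (chr19:71998254-71998739), 67.3 kb (chr19:72051939-72052263), 81.9 kb (chr19:72066543-72066836) and 114 kb (chr19:72098866-72099414) from the start, with log2 fold changes of 1.19, 1.03, 1.26, 1.39 and 1.02. Upstream they lay at 112 kb (chr19:71872438-71872987) and 191 kb (chr19:71794161-71794602), with log2 fold changes of 0.66 and 1.25. Their standard errors were between 0.20 and 0.33, their adjusted p-values between 8.77e-04 and 0.0298 (edgeR's quasi-likelihood test with Benjamini-Hochberg adjustment), and at all 7 the groups did not overlap. Under total sequenced reads none of the 7 was called, and the site at 112 kb turned to -0.18.

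The site over the *Nrp1* start (chr19:71984415-71984920) had 9.49, 10.4 and 7.48 CPM in Adult replicates 4, 5 and 6, and 12.0, 12.1 and 10.5 CPM in P10 replicates 1, 2 and 3. No Adult value reached the P10 range, the reverse of the gene as a whole, but the log2 fold change of -0.33 (standard error 0.23) did not pass (edgeR's quasi-likelihood test, Benjamini-Hochberg adjusted p = 0.451). With cyclic loess and limma-trend (-0.48, adjusted p = 0.178) and under total sequenced reads (-1.16, adjusted p = 0.00565) it was called Down. Tested against the other ACS of *Nrp1* with edgeR's diffSpliceDGE, its log2 fold change was lower than that of the gene by -0.95 (Benjamini-Hochberg adjusted p = 0.00732). That difference lay between -1.17 and -0.77 with each library left out and was called in every alternative tested. It was 1 of 6 *Nrp1* sites below their gene, the others lying 473, 145, 111 and 82.7 kb upstream and 7.96 kb inside the gene (-1.69, -0.76, -0.83, -1.15 and -0.85), all named after their values were seen. The other TSS-class site, 0.863 kb inside the gene (chr19:71985550-71986260) and also named afterwards, did not share this, with 10.6 ± 2.74 CPM (SD, n = 3) in the Adult and 9.53 ± 0.486 CPM (SD, n = 3) in the P10 libraries. Its groups overlapped and it was called neither alone (0.15, adjusted p = 0.790 in edgeR's quasi-likelihood test) nor against its gene (-0.47, adjusted p = 0.317 in diffSpliceDGE). In the RefSeq order of genes, *Nrp1* follows *Pard3*.

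**Figure D2:**
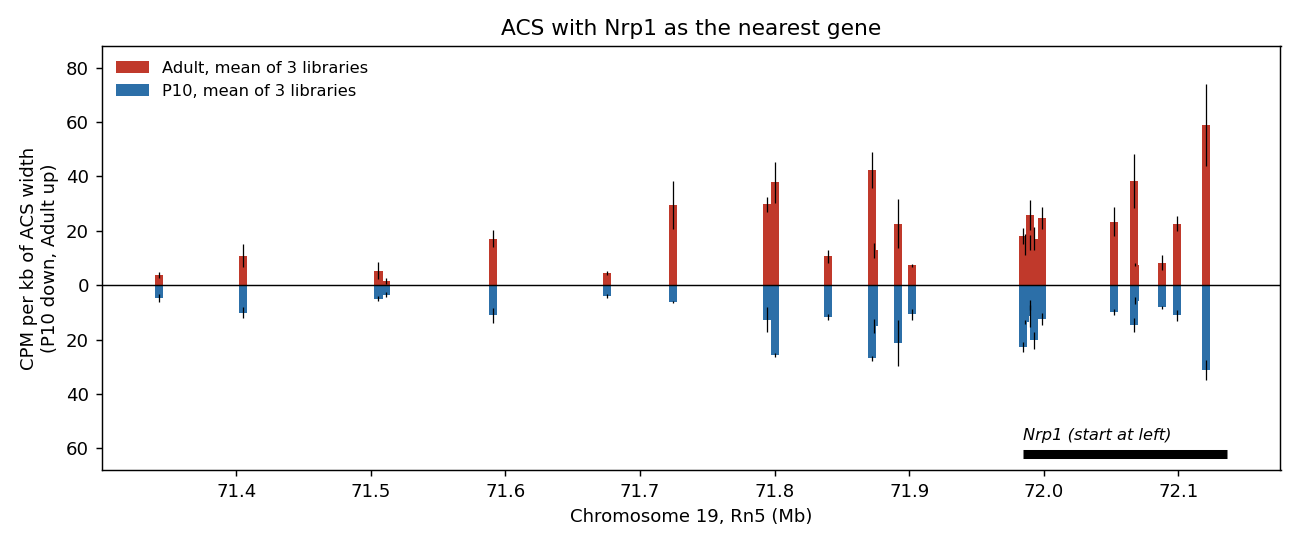
Accessibility of the ACS with *Nrp1* as the nearest gene along chromosome 19 of Rn5 (horizontal axis, Mb), as CPM per kb of ACS width (vertical axis), with Adult means drawn upwards in red, P10 means drawn downwards in blue, SD as black lines (n = 3) and the gene as a black bar. The site 260 kb upstream had 29.5 CPM per kb in adults and 6.12 in P10 islets, and the site over the start 18.0 and 22.8.

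*Tek*, the receptor of the angiopoietins, had 5 ACS and no called site. Its summed level was 47.5 ± 8.65 CPM (SD, n = 3) in the Adult and 48.6 ± 5.38 CPM (SD, n = 3) in the P10 libraries, with overlapping groups (log2 fold change -0.04, standard error 0.14, adjusted p = 0.916 in edgeR's quasi-likelihood test). At the site 0.722 kb upstream of its start (chr5:117671762-117672398), its most counted site, the values were 14.5, 13.6 and 15.5 CPM in Adult replicates 4, 5 and 6, and 16.9, 20.0 and 16.2 CPM in P10 replicates 1, 2 and 3. Every Adult library was below every P10 library, by less than the test requires (log2 fold change -0.28, standard error 0.20, edgeR's quasi-likelihood test, Benjamini-Hochberg adjusted p = 0.462). Of the 5 sites, 0 were called by edgeR, DESeq2 or limma voom, 0 passed an unadjusted p under 0.05 in edgeR, and 1 was called Down by limma-trend after cyclic loess scaling. The site near the start was also called Down by edgeR with total sequenced reads as library sizes (-1.12, adjusted p = 0.00437).

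*Eng*, which encodes the TGF-β co-receptor endoglin of endothelial cells, was not found by symbol, but 1 ACS without a symbol carried the gene ID that RefSeq gives to *Eng*. It lay inside the gene, 14.8 kb from the start (chr3:17036470-17036775), and held 19, 22 and 20 integrations in Adult replicates 4, 5 and 6, and 106, 62 and 47 in P10 replicates 1, 2 and 3. As CPM the groups overlapped, with P10 replicate 3 (2.48 CPM) below Adult replicate 6 (2.58 CPM). The log2 fold change was -0.89 (standard error 0.35, edgeR's quasi-likelihood test, Benjamini-Hochberg adjusted p = 0.123), a Down call that was lost without Adult replicate 4 (-0.75, adjusted p = 0.309), P10 replicate 1 (-0.69, adjusted p = 0.332) or P10 replicate 2 (-0.82, adjusted p = 0.324). This site was named after its values were seen and is in none of the counts of the 138 ACS.

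*Cdh5*, which encodes VE-cadherin of the endothelial adherens junction, had 28 ACS, all distal, of which 6 rose. Its summed level was 186, 176 and 211 CPM in Adult replicates 4, 5 and 6, and 115, 140 and 144 CPM in P10 replicates 1, 2 and 3. The lowest Adult library exceeded the highest P10 library. The log2 fold change was 0.52 (standard error 0.12), a 1.43-fold difference (edgeR's quasi-likelihood test, Benjamini-Hochberg adjusted p = 0.0186), between 0.41 and 0.58 with each library left out. It was 0.26 and not called over ACS within 100 kb of the start (adjusted p = 0.318), and it turned to -0.30 under total sequenced reads. By edgeR, DESeq2 and limma voom 0 of the 28 sites were Down, with 0 lower at an unadjusted p under 0.05 in edgeR.

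The *Cdh5* sites with the smallest p lay far upstream. The site 538 kb upstream (chr19:1610439-1610792) had 20.4, 15.7 and 21.8 CPM in Adult replicates 4, 5 and 6, and 4.09, 5.56 and 5.29 CPM in P10 replicates 1, 2 and 3. Every Adult library was more than 2-fold above every P10 library (log2 fold change 1.96, standard error 0.23, edgeR's quasi-likelihood test, Benjamini-Hochberg adjusted p = 3.12e-06). The site 103 kb upstream (chr19:1175550-1176166) had 17.5, 9.25 and 16.2 CPM in Adult replicates 4, 5 and 6, and 4.23, 4.14 and 3.91 CPM in P10 replicates 1, 2 and 3. The P10 libraries were almost equal there and Adult replicate 5 was the lowest of its group (log2 fold change 1.80, standard error 0.26, edgeR's quasi-likelihood test, Benjamini-Hochberg adjusted p = 3.66e-05). At 567 kb upstream (chr19:1640160-1640443) the values were 10.0 ± 1.41 (SD, n = 3) and 3.08 ± 0.380 (SD, n = 3) CPM (log2 fold change 1.69, standard error 0.27, adjusted p = 9.84e-05 in edgeR's quasi-likelihood test). These 3 sites were called in every alternative in which they were tested, with 1.13, 0.96 and 0.87 under total sequenced reads.

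The sites 404 kb (chr19:1476932-1477465) and 150 kb (chr19:1222353-1222644) upstream rose by 1.09 and 1.16 on the log2 scale, both without overlap (standard errors 0.21 and 0.25, adjusted p = 9.72e-04 and 0.00323 in edgeR's quasi-likelihood test), and under total sequenced reads were not called (0.26 and 0.34). The *Cdh5* site with the most counts, 174 kb upstream (chr19:1246294-1246839), had 16.6 ± 1.95 CPM (SD, n = 3) in the Adult and 14.8 ± 2.28 CPM (SD, n = 3) in the P10 libraries, with overlapping groups (log2 fold change 0.17, adjusted p = 0.708 in edgeR's quasi-likelihood test). Under total sequenced reads this site was called Down (-0.64, adjusted p = 0.0521 in the same edgeR test). *Cdh5* lies between *Bean1* and *Cdh11*, another cadherin gene, in the order of genes. Of its 28 ACS, 24 were upstream and the farthest lay 618 kb away. The nearest gene is a statement of position, and which gene such a site acts on was not tested.

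*Pecam1*, the endothelial adhesion molecule CD31, had 7 ACS, of which 1 fell. Its summed level was 39.8 ± 1.68 CPM (SD, n = 3) in the Adult and 43.5 ± 2.74 CPM (SD, n = 3) in the P10 libraries, with overlapping groups (log2 fold change -0.13, standard error 0.12, adjusted p = 0.580 in edgeR's quasi-likelihood test). The site that fell was also the one with the most counts, 105 kb downstream of the start (chr10:94554991-94555803), at 18.3, 18.5 and 20.2 CPM in Adult replicates 4, 5 and 6, and 25.2, 27.4 and 23.3 CPM in P10 replicates 1, 2 and 3. Every Adult library was below every P10 library. The log2 fold change was -0.41 (standard error 0.18, edgeR's quasi-likelihood test, Benjamini-Hochberg adjusted p = 0.185), near the limit. With 1 library left out it was called without P10 replicate 1, but not without Adult replicate 4 (-0.39, adjusted p = 0.312), Adult replicate 5 (-0.39, adjusted p = 0.238), Adult replicate 6 (-0.46, adjusted p = 0.236), P10 replicate 2 (-0.37, adjusted p = 0.459) or P10 replicate 3 (-0.48, adjusted p = 0.218). The *Pecam1* site inside the gene, 44.2 kb from the start (chr10:94616157-94616782), chosen after its values were seen, had 9.96 ± 2.59 CPM (SD, n = 3) in the Adult and 6.98 ± 2.05 CPM (SD, n = 3) in the P10 libraries and was not called (log2 fold change 0.51, adjusted p = 0.265 in the same edgeR test).

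**Figure D3:**
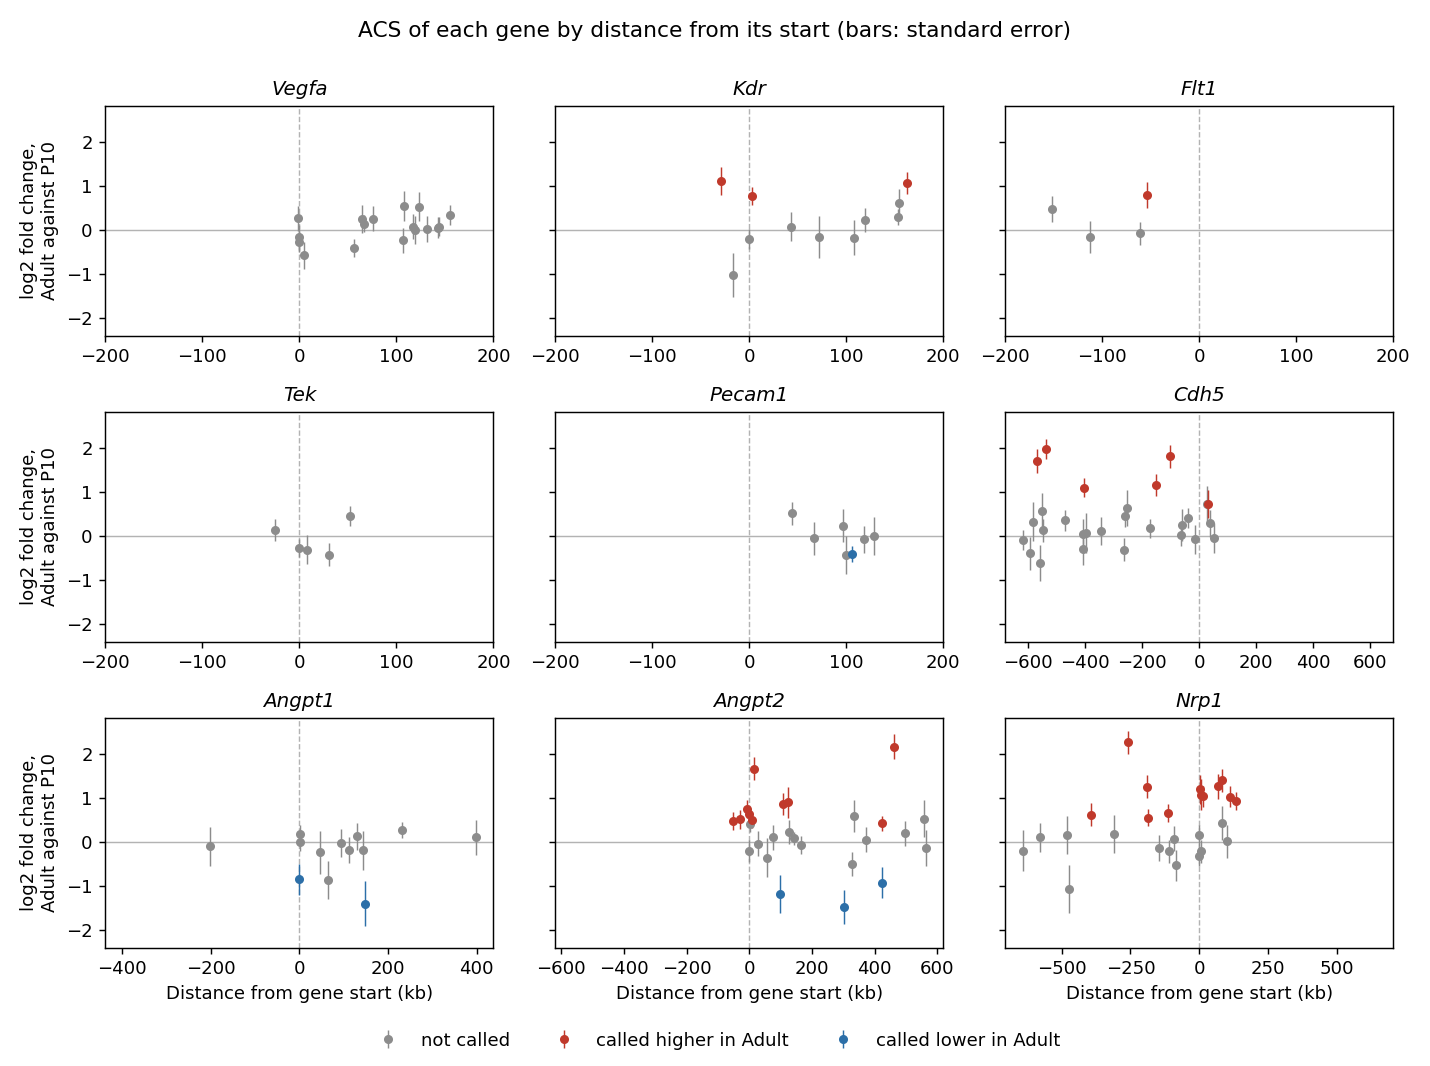
Log2 fold change of each ACS (vertical axis, Adult against P10, bars for the standard error) against its distance from the start of its gene (horizontal axis, kb, negative upstream), in a panel per gene, with sites called Up in red, sites called Down in blue and the others in grey. The Up sites with the smallest p lie 260 kb from *Nrp1*, 463 kb from *Angpt2* and 538 kb from *Cdh5*, all called also with total sequenced reads as library sizes, under which 10 of the named sites turn their direction.

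Each ACS was tested against the other ACS of its gene with edgeR's diffSpliceDGE, and of the 138 members 11 rose more than their gene (7.97%) and 17 rose less or fell (12.3%), against 7.13% and 7.49% of the 98330 ACS tested. The counts changed with the libraries, to 7 and 6 above their gene without Adult replicate 4 and without P10 replicate 3, and to 10 and 11 below it without P10 replicate 2 and without P10 replicate 3. *Cdh5* had 5 sites above and 5 below, *Nrp1* 3 and 6, and *Angpt2* 2 and 4. The sites farthest above their gene were 463 kb from *Angpt2* (by 1.81, adjusted p = 3.83e-06), 260 kb from *Nrp1* (by 1.64, adjusted p = 8.57e-07) and 538 kb from *Cdh5* (by 1.43, adjusted p = 6.18e-06), and the site 303 kb from *Angpt2* was the farthest below (-1.83, adjusted p = 7.40e-05, all from diffSpliceDGE with Benjamini-Hochberg adjustment). Those 4 were called in every alternative in which they were tested, the site at 303 kb having too few counts for the one that asks for a mean of 50. All ACS are annotated by position alone, as inside, upstream or downstream of the gene, and exons and introns were not analysed here.

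The gene starts of *Vegfa*, *Kdr* and *Nrp1* each carried a site that did not pass the test, and the promoter sequences of these genes are shown. Whether these sequences lie beneath the sites was not tested. RefSeq promoter sequences (250 bases before the gene start, GRCr8 assembly, other coordinates than the Rn5 sites) were found for 5 of the 10 genes, with 6 sequences. Motifs were searched on both strands, namely the hypoxia response core ACGTG, the ETS motif CCGGAA, the GC box GGGCGG, the forkhead motif TGTTTAC and the GATA motif GATAAG. Capitals mark the matches, which on the reverse strand read as CCGCCC for the GC box and TTCCGG for the ETS motif.
Vegfa, chr9:22452604-22452853, plus strand: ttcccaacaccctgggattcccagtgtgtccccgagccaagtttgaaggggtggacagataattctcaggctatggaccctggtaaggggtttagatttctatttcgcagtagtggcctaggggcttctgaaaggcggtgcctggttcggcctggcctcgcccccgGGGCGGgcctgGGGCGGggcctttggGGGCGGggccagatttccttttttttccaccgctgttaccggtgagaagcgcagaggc
Kdr, chr14:32571813-32572062, plus strand: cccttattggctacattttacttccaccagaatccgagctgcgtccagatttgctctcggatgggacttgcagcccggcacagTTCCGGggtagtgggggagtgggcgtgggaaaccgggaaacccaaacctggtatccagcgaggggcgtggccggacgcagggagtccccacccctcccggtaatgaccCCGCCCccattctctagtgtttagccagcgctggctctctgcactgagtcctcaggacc
Nrp1, chr19:73256307-73256556, plus strand: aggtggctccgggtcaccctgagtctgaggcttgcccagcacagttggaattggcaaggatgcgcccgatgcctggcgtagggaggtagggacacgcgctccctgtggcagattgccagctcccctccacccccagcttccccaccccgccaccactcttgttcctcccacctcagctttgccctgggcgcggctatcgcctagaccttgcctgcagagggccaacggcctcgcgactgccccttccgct

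The *Vegfa* promoter held 3 GC boxes, beginning 84, 73 and 58 bases before the start. The *Kdr* promoter held 1 ETS motif, 167 bases before the start, and 1 GC box, 59 bases before it. No searched motif was in the *Nrp1* window, nor in those of *Eng* and of a second *Vegfa* start, and the *Flt1* window held 3 GC boxes. Of 33469 rat promoters, 30.5% held the GC box, 12.6% the ETS motif, 16.6% the hypoxia response core, 6.18% the GATA motif and 3.21% the forkhead motif. The GC content was 60.4% at *Vegfa*, 61.6% at *Kdr*, 66.4% at *Nrp1* and 73.2% at *Flt1*, with a median of 51.2% over all promoters. A match is a description of letters and not a bound site.

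Other genes of the pathway were taken from 5 lists. The first held 8 genes, namely other VEGF ligands and receptors together with *Tie1* and *Plxnd1*, which are not VEGF receptors. Of these genes, 7 had ACS (*Vegfd*, also searched as *Figf*, was not analysed here). Of their 42 sites 10 rose and 3 fell (23.8% and 7.14%, against 12.3% and 6.63% of all ACS), with a median log2 fold change of 0.12 (-0.01 over all ACS). Without P10 replicate 2, 5 rose and 0 fell in edgeR, and without Adult replicate 4 or Adult replicate 6, 1 fell. All 10 Up sites belonged to *Nrp2* (6) and *Vegfc* (4), and the 7 gene sums had a median log2 fold change of -0.17, with 2 called higher and 2 lower. The sums of *Nrp2* (0.42, adjusted p = 0.0632) and *Vegfc* (0.32, adjusted p = 0.178) were higher, and those of *Flt4* (-0.54, adjusted p = 0.0669) and *Vegfb* (-0.60, adjusted p = 0.1, all in edgeR's quasi-likelihood test) lower. The call for *Nrp2* was lost without Adult replicate 6 (0.26, adjusted p = 0.290) or P10 replicate 2 (0.42, adjusted p = 0.237), and its direction turned under total sequenced reads (-0.42). That for *Vegfc* was lost without Adult replicate 4 (0.37, adjusted p = 0.225), Adult replicate 6 (0.21, adjusted p = 0.499), P10 replicate 1 (0.17, adjusted p = 0.427) or P10 replicate 2 (0.34, adjusted p = 0.364), with column sums (0.23, adjusted p = 0.282), cyclic loess and limma-trend (0.25, adjusted p = 0.321) and DESeq2 (0.32, adjusted p = 0.217). Total sequenced reads turned it into a Down call (-0.49, adjusted p = 0.0409). The *Flt4* sum was not called without P10 replicate 2 (-0.44, adjusted p = 0.352). Nor was the *Vegfb* sum without Adult replicate 4 (-0.55, adjusted p = 0.238), Adult replicate 6 (-0.49, adjusted p = 0.282) or P10 replicate 2 (-0.61, adjusted p = 0.256).

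The site of the lymphatic ligand *Vegfc* 3.51 kb upstream (chr16:40335263-40335499) had 13.7, 13.8 and 19.1 CPM in Adult replicates 4, 5 and 6, and 4.93, 6.78 and 5.45 CPM in P10 replicates 1, 2 and 3. No Adult library came near the P10 range (log2 fold change 1.44, standard error 0.24, edgeR's quasi-likelihood test, Benjamini-Hochberg adjusted p = 1.78e-04). A further *Vegfc* site 12.6 kb upstream (chr16:40344342-40344680) rose by 1.33 (adjusted p = 0.00472), the *Flt4* start site (chr10:34850144-34850938) was lower in adults with -0.83 (adjusted p = 0.0342), and so was a *Tie1* site 10.9 kb upstream (chr5:141122489-141123040) with -0.68 (adjusted p = 0.102, all in edgeR's quasi-likelihood test). Under total sequenced reads the *Vegfc* call at 12.6 kb was lost (0.45, adjusted p = 0.264). The call at the *Flt4* start was lost without P10 replicate 2 (-0.70, adjusted p = 0.204). The *Tie1* call was lost without Adult replicate 4 (-0.60, adjusted p = 0.254), Adult replicate 6 (-0.65, adjusted p = 0.205), P10 replicate 1 (-0.50, adjusted p = 0.293) or P10 replicate 2 (-0.71, adjusted p = 0.213).

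Of 8 oxygen-sensing genes, which set the hypoxic induction of *Vegfa*, 7 had ACS (*Egln1* was not analysed here), and of their 80 sites 11 rose and 4 fell (13.8% and 5.00%, against 12.3% and 6.63% of all ACS), with a median of 0.00. Without Adult replicate 4, P10 replicate 1 or P10 replicate 3, 2 fell. The sites with the smallest p in each direction all belonged to *Egln3*, a hypoxia-inducible prolyl hydroxylase. Those 160 kb upstream (chr6:84778636-84778855) and 373 kb downstream (chr6:84245572-84246040) of its start rose by 1.69 and 1.14 (adjusted p = 3.62e-04 and 0.00156), and those 666 kb downstream (chr6:83952171-83952643) and 40.5 kb upstream (chr6:84658812-84659230) had log2 fold changes of -0.89 and -0.87 (adjusted p = 0.0570 and 0.0658, all in edgeR's quasi-likelihood test). Calls were lost at 373 kb under total sequenced reads (0.31, adjusted p = 0.350), at 666 kb without Adult replicate 4 (-0.71, adjusted p = 0.222) and at 40.5 kb without P10 replicate 3 (-0.79, adjusted p = 0.217).

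Of 18 other endothelial surface and junction genes, 15 had ACS (*Mmrn2*, *Ptprb* and *Cd34* were not analysed here), and of their 110 sites 9 rose and 9 fell (8.18% each, against 12.3% and 6.63% of all ACS), with a median of -0.12. Without Adult replicate 4, 5 rose, and 4 and 5 fell without P10 replicate 2 and P10 replicate 3. The sites named from it were 365 kb upstream of *Clec14a* (chr6:89200821-89201515, log2 fold change 1.07, adjusted p = 1.82e-04) and 120 kb downstream of *S1pr1* (chr2:236626370-236626902, 0.79, adjusted p = 0.0183), and in the other direction 227 kb upstream of *Clec14a* (chr6:89062567-89063095, -0.82, adjusted p = 0.0284) and 76.7 kb upstream of *Podxl* (chr4:58704907-58705210, -1.14, adjusted p = 0.0584, all in edgeR's quasi-likelihood test). The *Podxl* call was lost without P10 replicate 2 (-0.85, adjusted p = 0.347). Under total sequenced reads the *Clec14a* site at 365 kb was not called (0.23, adjusted p = 0.442) and the *S1pr1* site turned (-0.04, adjusted p = 0.906). Of 9 endothelial Notch and ALK1 genes, all 9 had ACS, and of their 77 sites 9 rose and 10 fell (11.7% and 13%, against 12.3% and 6.63% of all ACS), with a median of -0.08. Of the 10 that fell, 8 belonged to *Jag1* and 1 each to *Hey2* and *Gdf2*, and without P10 replicate 3 the list had 5. There, sites 108 kb downstream of *Hey2* (chr1:30742170-30742408) and 599 kb upstream of *Jag1* (chr3:137193374-137193800) rose by 1.72 and 1.59 (adjusted p = 9.84e-05 and 1.62e-04). The *Jag1* start (chr3:136594113-136595101) and a site 18.7 kb inside *Jag1* (chr3:136575422-136575873) had log2 fold changes of -0.82 and -1.66 (adjusted p = 0.00389 and 0.00742, all in edgeR's quasi-likelihood test).

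Of 13 endothelial transcription factors, 12 had ACS (*Mef2c* was not analysed here), and of their 116 sites 22 rose and 12 fell (19% and 10.3%, against 12.3% and 6.63% of all ACS), with a median of 0.04. The sites that rose numbered 13 without Adult replicate 4 or P10 replicate 2, and those that fell 7, 3 and 6 without Adult replicate 6, P10 replicate 2 and P10 replicate 3. Sites 494 kb downstream of *Ets1* (chr8:34352476-34353035) and 202 kb upstream of *Klf4* (chr5:76653681-76653898) rose by 1.54 and 1.92 (adjusted p = 5.77e-05 and 3.08e-04). A site 633 kb downstream of *Ets1* (chr8:34491587-34492190) and the start of *Hhex* (chr1:263583524-263584078) had log2 fold changes of -1.41 and -0.83 (adjusted p = 0.00251 and 0.0320, all in edgeR's quasi-likelihood test), and the *Hhex* call was lost without P10 replicate 2 (-0.65, adjusted p = 0.232). The *Ets1* site at 494 kb was not called under total sequenced reads (0.64, adjusted p = 0.0921). Several of these factors, *Hhex*, *Klf4* and *Ets1* among them, are also used outside the endothelium.

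Markers of cell types were summed as shares of all integrations in ACS (CPM of the column sums), to set beside these results. Such a share sums the accessibility of sites assigned by nearest gene, most of them distal, and does not measure how many cells of a type a library held. All 12 endothelial markers, of which *Pecam1*, *Cdh5* and *Kdr* are members, had ACS, and their 80 sites took 662, 649 and 667 CPM in Adult replicates 4, 5 and 6, and 622, 611 and 611 CPM in P10 replicates 1, 2 and 3. All Adult libraries were above all P10 libraries (659 ± 9.23 and 615 ± 6.07, SD, n = 3, two-sided exact permutation test, p = 0.1), a direction that turned per total sequenced read (-0.65). *Cdh5* was the most abundant of them, with 25.5% of their summed level. In a split made after the values were seen, the 3 markers that are members took 359 ± 30.8 CPM (SD, n = 3) in the Adult and 297 ± 4.46 CPM (SD, n = 3) in the P10 libraries. The other 9 took 300 ± 21.6 CPM (SD, n = 3) and 318 ± 3.26 CPM (SD, n = 3), with overlap (log2 ratio -0.08, two-sided exact permutation test, p = 0.400). Of the 12 gene sums, whose median log2 fold change was -0.15, those of *Cdh5* and *Kdr* were called higher. The sums of *Plvap* (-0.50, adjusted p = 0.183) and *Erg* (-0.57, adjusted p = 0.154, both in edgeR's quasi-likelihood test) were called lower, each without overlap. The *Plvap* call was lost without Adult replicate 5 (-0.40, adjusted p = 0.326), Adult replicate 6 (-0.46, adjusted p = 0.359), P10 replicate 1 (-0.41, adjusted p = 0.310), P10 replicate 2 (-0.56, adjusted p = 0.340) or P10 replicate 3 (-0.53, adjusted p = 0.225). The *Erg* call was lost without Adult replicate 4 (-0.65, adjusted p = 0.212), Adult replicate 5 (-0.51, adjusted p = 0.249), Adult replicate 6 (-0.55, adjusted p = 0.299), P10 replicate 1 (-0.47, adjusted p = 0.283) or P10 replicate 2 (-0.55, adjusted p = 0.381). With cyclic loess and limma-trend neither was called (-0.37, adjusted p = 0.344, and -0.41, adjusted p = 0.291). The 2 gene-start sites of the 12 markers, 1 each of *Kdr* and *Cldn5*, together had a lower Adult mean, at 11.2, 17.3 and 19.7 CPM in the Adult libraries and 18.3, 20.8 and 25.1 CPM in the P10 libraries, with overlap (16.1 ± 4.41 and 21.4 ± 3.44, SD, n = 3, two-sided exact permutation test, p = 0.2). Of the 80 sites 10 rose and 5 fell (12.5% and 6.25%, against 12.3% and 6.63% of all ACS), with 3 falling without Adult replicate 6 and 1 without P10 replicate 2.

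Alpha cell markers (5 of 5 with ACS, *Irx2* the most abundant) took 917, 854 and 949 CPM in Adult replicates 4, 5 and 6, and 781, 724 and 825 CPM in P10 replicates 1, 2 and 3. The 3 Adult libraries were above all P10 libraries (log2 ratio 0.22, two-sided exact permutation test, p = 0.1), a direction that turned per total sequenced read (-0.52) and over gene starts alone (-0.16, with overlap, p = 0.300 in the same exact test). Beta cell markers (6 of 8, *Mafa* and *G6pc2* not analysed here, *Slc2a2* the most abundant) took 875, 817 and 833 CPM in the Adult libraries and 1079, 816 and 808 CPM in the P10 libraries, where P10 replicate 1 stood above all others (log2 ratio -0.10, but 0.05 without P10 replicate 1 and 0.06 over distal sites alone). Over gene starts alone it was -0.52, with every Adult library below every P10 library (171 ± 20.3 and 246 ± 65.0 CPM, SD, n = 3, two-sided exact permutation test, p = 0.1). Delta cell markers (4 of 4, *Sst* the most abundant) took 281, 234 and 257 CPM in the Adult and 295, 271 and 264 CPM in the P10 libraries, with overlap (two-sided exact permutation test, p = 0.400). Their gene starts alone were lower in every Adult library (31.9 ± 2.99 and 46.7 ± 4.58 CPM, SD, n = 3, log2 ratio -0.55, p = 0.1 in the same exact test).

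Among non-endocrine types, mesenchymal and pericyte markers (9 of 10, *Acta2* not analysed here, *Col1a2* the most abundant) took 425, 417 and 412 CPM in Adult replicates 4, 5 and 6, and 394, 387 and 396 CPM in P10 replicates 1, 2 and 3, without overlap, and the direction turned per total sequenced read (-0.65) and over gene starts alone (-0.48). This had the smallest possible p (two-sided exact permutation test, p = 0.1). Acinar markers (7 of 9, *Cela1* and *Cel* not analysed here, *Ptf1a* the most abundant) took 430, 406 and 416 CPM in the Adult and 420, 401 and 397 CPM in the P10 libraries. Duct markers (4 of 6, *Krt7* and *Onecut2* not analysed here, *Sox9* the most abundant) took 256, 243 and 272 CPM in the Adult and 216, 226 and 247 CPM in the P10 libraries. Immune markers (6 of 8, *Cd68* and *Lyz2* not analysed here and *Adgre1* found as *Emr1*, *Cd74* the most abundant) took 111, 110 and 124 CPM in the Adult and 103, 100 and 115 CPM in the P10 libraries. The groups overlapped for the last 3 lists, and per total sequenced read the higher Adult means turned (-0.71, -0.57 and -0.63). Over gene starts alone duct markers were lower in every Adult library than in any P10 library (18.5 ± 1.95 and 32.2 ± 6.09 CPM, SD, n = 3, log2 ratio -0.80). Acinar markers overlapped there (-0.22). The 1 start site of immune markers was higher in every Adult library (30.6 ± 4.94 and 17.1 ± 1.09 CPM, SD, n = 3, log2 ratio 0.84, two-sided exact permutation test, p = 0.1, as for the duct markers). The part of cell make-up in the results at the 138 ACS was not tested.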

How the data were processed

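ATAC-seq was measured in dissociated islet cells of 3 adult rats and of 3 mixes of pups aged 10 days. The authors checked reads with FastQC 0.11.2, aligned them to Rn5 with BWA 0.7.13, filtered them with SAMtools 1.3, called peaks with MACS2 2.1.1 on the joined samples of each age and deposited raw counts, the number of Tn5 cuts that pyDNase found per library at every ACS. Removal of PCR duplicates was not stated. Comparison columns of the authors (logFC, logCPM, F, PValue and FDR) were present in the table and used for no result. The direction of change follows the age and replicate names of the count columns. The published text on which direction is the more frequent over all ACS runs the other way. The table had 101941 entries, of which 338 were repeat listings, which left 101603 ACS, and 6899 entries had no symbol.

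Members were all ACS whose nearest gene carried 1 of the 10 symbols. Members and lists were chosen with earlier results of these data known. ACS were tested with edgeR 4.0.16 (TMM, quasi-likelihood) in R 4.3.3, as were sums per gene, and each ACS against the others of its gene with edgeR's diffSpliceDGE. Benjamini-Hochberg adjustment ran over all ACS or genes. Shares of integrations were compared by exact permutation of the libraries, two-sided. Sites named per gene were the TSS-class site and the site of any class with the most counts, the Up and the Down site of smallest p, and all sites called at a false discovery rate under 0.05. For the lists, the called sites of smallest p in each direction were named. For marker lists the summed level is given in place of named sites, save for the sites of *Nkx6-1* and *Sox9* that turned under total sequenced reads. Tables and figures were made in Python 3.11.15 with pandas 2.3.3, numpy 2.4.6 and matplotlib 3.10.9.

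Alternatives were column sums, median-of-ratios and total sequenced reads as library sizes, cyclic loess with limma-trend, limma 3.58.1 voom, DESeq2 1.42.0, edgeR's filter (minimum count 10, total 15), a mean of at least 50 counts, a false discovery rate under 0.05, distal ACS or ACS within 100 kb alone, and leaving out each library. The scripts were tested on simulated data. Promoter sequences, gene IDs and neighbouring genes came from RefSeq on GRCr8, and no position was carried between it and Rn5. The class was kept as deposited, and by distance from the gene start all members lie within the class limits of 1 kb and 10 kb.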

Additional observations from a re-analysis of the deposited data

How the results depend on the processing

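No paired analysis was possible because the Adult replicates (4 to 6) and the P10 replicates (1 to 3) share no number, animal or litter. Of the alternatives to the fold changes of named member ACS, 496 kept direction and side of the limit, 28 lost the call, 10 gained one and 18 turned. For sums per gene these were 86, 15, 3 and 22. Of the differences from the own gene, 120 kept their call and 21 lost it, and of the shares of integrations 74 kept their direction and 16 turned. Of the 26 named member ACS that were called, 26 were called by DESeq2 and limma voom, 25 with cyclic loess and limma-trend and 9 with total sequenced reads as library sizes. The cause of the changes below was not tested.

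Over all ACS, 12504 were Up and 6738 Down (65.0% of calls Up). With column sums these were 10447 and 10732 (49.3%), with cyclic loess and limma-trend 11068 and 9101 (54.9%), and with total reads 1062 and 61663 (1.69%), where the median moved to -0.84 (-0.10 with column sums).

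With total sequenced reads, 6 members were Up and 68 Down, 0 genes were higher and 6 lower by their sums in edgeR, and 6 ACS rose more and 8 less than their gene. Directions turned for *Vegfa* 66.5 kb (-0.74), *Kdr* 2.64 kb (-0.08) and 153 kb (-0.60), *Flt1* 53.8 kb upstream (-0.01), *Cdh5* 174 kb upstream (-0.64), *Angpt1* 802 bp (-0.64), *Angpt2* 8.71 kb upstream (-0.08), 333 bp (-0.24) and 143 kb (-0.77), and *Nrp1* 112 kb upstream (-0.18). Among single sites of the other lists, those 120 kb downstream of *S1pr1* (-0.04), 165 kb downstream of *Nkx6-1* (-0.01) and 650 kb upstream of *Sox9* (-0.01) turned. None of these was called under this setting. The sums turned for *Vegfa* (-0.87), *Kdr* (-0.54), *Flt1* (-0.52), *Cdh5* (-0.30), *Angpt2* (-0.48) and *Nrp1* (-0.23), and the shares of members (-0.53) and of endothelial (-0.65), alpha (-0.52), acinar (-0.71), duct (-0.57), mesenchymal (-0.65) and immune markers (-0.63). The sums called lower were those of *Vegfa*, *Kdr*, *Angpt2*, *Tek* (-0.86), *Pecam1* (-0.97) and *Angpt1* (-0.79). Down calls were gained at the starts of *Vegfa* (-1.15), *Kdr* (-1.03), *Tek* (-1.12) and *Nrp1* (-1.16), at *Flt1* 61.0 kb upstream (-0.93) and at *Angpt1* 2.02 kb (-0.80). Of the turned sites, *Vegfa* 66.5 kb, *Angpt2* 143 kb, *Kdr* 153 kb, *Cdh5* 174 kb upstream and *Angpt1* 802 bp were also called Down.

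With column sums, 11 members were Down, and *Angpt2* 143 kb (-0.01) and the *Vegfa* sum (-0.08) turned. With cyclic loess and limma-trend, which change scaling and test together, 11 members were Down, 2 genes were higher and the *Vegfa* sum was -0.09. With limma voom, *Angpt1* 2.02 kb (0.03) and the *Angpt1* sum (0.02) turned. At a false discovery rate under 0.05, 1 member was Down. Over distal ACS alone 2 genes were higher, and the sums of *Vegfa* (-0.03) and *Tek* (0.06) and the shares of beta (0.06) and immune markers (-0.12) turned. Within 100 kb 2 genes were higher, and the sums of *Vegfa* (-0.06) and *Pecam1* (0.29) turned. Over gene starts alone the shares of members (-0.10) and of endothelial (-0.41), alpha (-0.16), acinar (-0.22), duct (-0.80) and mesenchymal markers (-0.48) turned.

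Leaving out each library in turn gave 22 to 34 members Up and 1 to 9 Down, 2 to 4 genes higher, and 6 to 11 ACS above and 10 to 20 below their gene. Signs turned within the ranges of *Vegfa* 66.5 kb (-0.01 to 0.44), *Flt1* 61.0 kb upstream (-0.28 to 0.02), *Angpt1* 2.02 kb (-0.20 to 0.13) and 802 bp (-0.02 to 0.33), the sums of *Vegfa* (-0.11 to 0.23), *Tek* (-0.19 to 0.06) and *Angpt1* (-0.20 to 0.15), and the beta marker share (-0.17 to 0.05).

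Depth and replication limit these results. With 3 libraries per age a permutation p cannot be under 0.1, and ACS of few counts have wide errors, so that a site that was not called is not shown to be equal at both ages.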
